A study of Homo sapiens with 4 samples.

Results

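H3K27 acetylation marks active promoters and enhancers. In MOLM13 cells, 844 peaks under SNDX-50469 plus OTX015 were at least 1000 bp wide and lay away from gene starts, and 125 of them met no peak under OTX015 alone. These 125 regions, called combination-only regions here, are described below, with the genes they lie in or next to. They were chosen by the deposited peak calls on 16 chromosomes (1 to 4, 7, 9 to 12, 14 to 18, 21 and 22). A region had to be a peak of the combination library, span at least 1000 bp, lie more than 2.5 kb from every protein-coding 5′ end of GRCh38, and share no base with an OTX015 peak. The combination list held 17246 peaks on these chromosomes and 86207 in all, and the OTX015 list held 15440 and 55852.

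MOLM13 is a human acute myeloid leukaemia line that carries an MLL-AF9 fusion. Cells had received OTX015 at 500 nM, or SNDX-50469 and OTX015 at 500 nM each, for 16 hours, and both groups therefore carried the BET inhibitor. Each treatment had 1 H3K27Ac library, so differences between treatments had no replicate check, no p-value was computed, and the intervals given are Wilson 95% intervals that cover counting over peaks or genes only. Untreated cells and SNDX-50469 alone were not analysed here, so a region without an OTX015 peak cannot be called gained against untreated cells.

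Enhancers are stretches of DNA that bind transcription factors and act on promoters that may lie far away. At active enhancers, acetyltransferases such as p300 and CBP acetylate histone H3 at lysine 27, and BET proteins read acetylated histones through their bromodomains. OTX015 occupies these bromodomains, whereas SNDX-50469 keeps Menin from docking on MLL1 and its fusions. In myeloid leukaemia, wide acetylated stretches are typically found at genes of lineage transcription factors, surface receptors and inflammatory mediators.

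Peaks lay within 10 kb of 11 of 16 myeloid marker genes in the OTX015 list and of 14 in the combination list, MPO, ELANE, SPI1 and CEBPA among both. Over all 19675 protein-coding genes with a known strand, the shares were 51.0% and 53.8%. These shares and the marker counts cover every chromosome. The 16 chromosomes of the regions held 15440 of the 55852 OTX015 peaks and 17246 of the 86207 combination peaks. For 8 erythroid and megakaryocyte markers the counts were 1 and 2, for 8 B cell markers 4 and 6, for 10 T and NK cell markers 4 and 7, and for 10 markers of tissues outside blood 3 and 6, so a peak near a gene was no mark of the myeloid list alone. No read numbers were used here, so depth means the background pileup solved from the lowest peaks of each list. These peaks gave a background of 0.764 fragments per base for OTX015 and 1.47 for the combination, a ratio of 1.92. The lowest peaks thus lay at 6.54 times background for OTX015 and 4.76 times for the combination.

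The 125 regions were short and weak for their class. Their widths ran from 1001 to 3036 bp with a median of 1241 bp, and they covered 166 kb of the 1978 kb under all 844 distal wide combination peaks. The 719 distal wide peaks that did meet an OTX015 peak had a median width of 1832 bp and reached 15570 bp. Fold enrichment, the mean ratio of pileup to background over a peak, ran from 3.24 to 4.05 with a median of 3.54, against a median of 3.81 and a maximum of 25.9 in the 719. The −log10 q ran from 1.32 to 2.43 with a median of 1.69, against a median of 2.08. All these values come from the peaks that the rule picked and are given as a description.

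**Figure D1:**
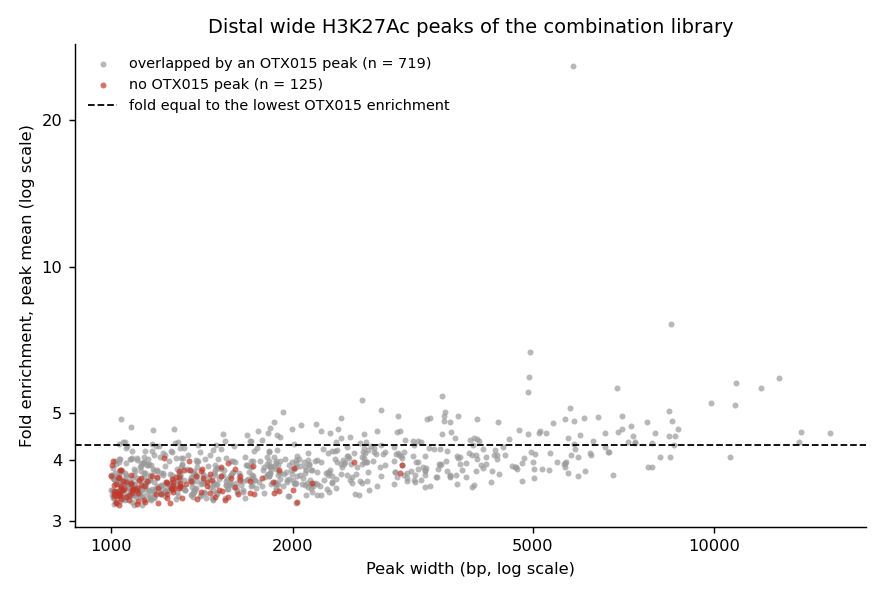
Width in bp (x axis, log scale) and mean fold enrichment (y axis, log scale) of the 844 distal wide combination peaks, with the 125 that no OTX015 peak overlapped in red and the other 719 in grey. The dashed line marks the combination fold of 4.30 that equals the lowest enrichment over background in the OTX015 list, and every red point lies below it.

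In mean enrichment over background, none of the 125 regions reached the level of the lowest OTX015 peaks. Their mean enrichment was 4.76 to 6.13 times background (median 5.27), under the 6.54 times of the lowest OTX015 peaks, which gives 0 of 125 (0% to 2.98%). In fragments, the regions averaged 7 to 9.01 per base in the combination library. The same enrichment at the OTX015 background would be 3.64 to 4.69 fragments per base, where the lowest OTX015 peaks had a pileup of 5. Of the 719 peaks that met an OTX015 peak, 116 (16.1%, 13.6% to 19.0%) reached the level. Of all 844 distal wide combination peaks, 728 lay below the level, and 125 of these (17.2%, 14.6% to 20.1%) had no OTX015 peak. At or above it, 0 of 116 (0% to 3.21%) had none. The rest of the 728 did meet an OTX015 peak, so a mean below the level did not bar one. The 125 were chosen for having no OTX015 peak, so their 0 of 125 is a description. The peak mean hides local maxima inside a peak, and signal tracks were not used here. How much of the set is due to the deeper combination library and how much to treatment cannot be told apart.

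The share of distal wide combination peaks without an OTX015 peak was 14.8% over all 844. It was 27.8% (57 of 205, 22.1% to 34.3%) at widths under 1200 bp and 23.5% (39 of 166) between 1200 and 1500 bp. It was 14.8% (22 of 149) between 1500 and 2000 bp, 3.52% (5 of 142) between 2000 and 3000 bp, and 1.1% (2 of 182, 0.302% to 3.92%) from 3000 bp upwards. Narrow, weak peaks thus made up most of the set. A wider peak has more bases that can meet an OTX015 peak, so the fall with width follows in part from the rule. By fold enrichment, the share was 31.3% (66 of 211) in the lowest quartile, 18.5% (39 of 211) in the next, 9.0% (19 of 211) in the third and 0.474% (1 of 211) in the highest. Over all combination peaks of the 16 chromosomes, most of them narrow, 81.6% met no OTX015 peak. Seen from the other library, 214 of 1015 distal wide OTX015 peaks (21.1%) met no combination peak. Every OTX015 peak lies above the lowest combination level by the construction of the lists.

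**Figure D2:**
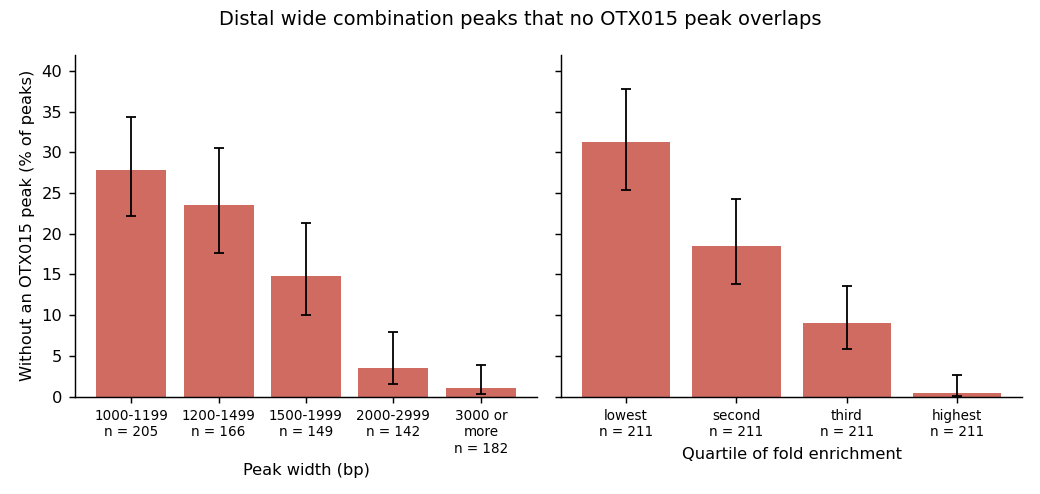
Share of the 844 distal wide combination peaks without an OTX015 peak (y axis, percent), by peak width in bp (left) and by quartile of fold enrichment (right), with the number of peaks under each bar and Wilson 95% intervals. The share lies at 27.8% for the narrowest and 1.1% for the widest class, and at 31.3% and 0.474% for the lowest and highest quartile. Wider peaks have more bases that can meet an OTX015 peak.

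On both sides of each criterion stood peaks of close values. The narrowest regions were a 1001 bp region 99.8 kb from PPIF and a 1004 bp region in PRKCB, and the widest peaks that missed the criterion spanned 994 bp near CYP1B1 and 993 bp near CDC42EP3. The regions nearest to a 5′ end lay 2675 bp from ZC3H12A and 2803 bp from SLC39A11. Wide combination peaks 2447 bp from PPOX and 2437 bp from LMO2 were left out. A region 17.5 kb from MYH9 stood 6 bp from an OTX015 peak and a region in GNA12 stood 7 bp away, whereas peaks near KLF13 and ECE1 were left out for overlaps of 11 and 20 bp.

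The word distal holds for the outer ends of gene records, on which the choice was made, and not for every known start. RefSeq lists further starts of protein-coding genes within 2.5 kb of 10 of the 125 regions (8%, 4.40% to 14.1%), against 46 of the 719 (6.40%, 4.83% to 8.43%). Such a start lay inside 27 of the 719 (3.76%) and inside 2 of the 125 regions (1.6%), in CASP8 and KANSL1. It lay within 60 bp of another 2 regions, in MKLN1 (8 bp) and SEPTIN9 (60 bp). The others were in INAVA, RAB7B, HPCAL1, ARHGAP25, ASB2 and GSE1, genes listed after their values were seen. The outer 5′ end of a long non-coding RNA gene lay inside 1 region (0.8%), that of LINC00582, and within 2.5 kb of 9 (7.2%). For the 719 the counts were 39 (5.42%) and 86 (12.0%). No region held a miRNA hairpin.

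For these 3 starts inside a region, the RefSeq promoter window (GRCh38.p14, 250 bases before to 50 after the start, 5′ to 3′ on the gene's strand) lay wholly within the peak. They are printed because an annotated start and its whole window fall inside the acetylated region. Another 5 windows, of SEPTIN9, MKLN1, MKLN1-AS, LOC105373817 and LOC124902267, lay partly inside a region, with 42 to 191 bases in it, and are not printed. CASP8 encodes the initiator caspase of death receptor signalling. Its window is chr2:201260286-201260585 on the plus strand, in a region of 1265 bp with a fold of 3.49. KANSL1 encodes a scaffold of the NSL histone acetyltransferase complex. Its window is chr17:46194001-46194300 on the minus strand, in a region of 1051 bp with a fold of 3.51. LINC00582 is a long non-coding RNA gene, with its window at chr1:231612041-231612340 on the minus strand, in a region of 1191 bp with a fold of 3.69. Capitals mark matches to any of 7 motifs searched on both strands.
CASP8: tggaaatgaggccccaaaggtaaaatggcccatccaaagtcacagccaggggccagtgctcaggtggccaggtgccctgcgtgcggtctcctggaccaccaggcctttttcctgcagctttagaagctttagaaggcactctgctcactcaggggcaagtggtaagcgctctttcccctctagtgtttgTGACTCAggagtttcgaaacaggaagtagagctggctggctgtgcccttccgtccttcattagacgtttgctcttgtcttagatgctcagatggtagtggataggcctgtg
KANSL1: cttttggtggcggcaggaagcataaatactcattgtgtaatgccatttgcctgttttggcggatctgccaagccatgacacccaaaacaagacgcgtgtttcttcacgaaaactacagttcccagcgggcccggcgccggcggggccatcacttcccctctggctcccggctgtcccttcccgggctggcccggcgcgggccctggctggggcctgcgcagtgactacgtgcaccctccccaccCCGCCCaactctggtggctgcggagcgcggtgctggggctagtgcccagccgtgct
LINC00582: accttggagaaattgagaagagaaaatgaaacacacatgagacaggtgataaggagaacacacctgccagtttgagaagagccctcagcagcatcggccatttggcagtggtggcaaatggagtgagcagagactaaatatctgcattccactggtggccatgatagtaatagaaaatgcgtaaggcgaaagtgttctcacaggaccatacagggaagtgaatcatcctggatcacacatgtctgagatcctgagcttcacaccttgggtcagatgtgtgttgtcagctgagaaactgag

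The CASP8 window held the AP-1 motif TGACTCA, which 4.95% of all 35116 promoter windows hold on either strand. The KANSL1 window held the GC box GGGCGG on its reverse strand, present in 45.0% of windows. The LINC00582 window matched none of the 7. The other motifs were the CRE TGACGTCA (1.85% of windows), GAGGAAGT for PU.1 (2.59%), TGTGGTT for RUNX (4.27%), the E-box CACGTG (7.26%) and TTGCGCAA for C/EBP (0.151%). G and C made up 64.7% of the KANSL1 window with 22 CpG dinucleotides, 54.3% of the CASP8 window with 6, and 46.7% of the LINC00582 window with 3, beside a median of 58.7% over all windows. A match is a match of letters and not an observed binding site.

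A protein-coding gene body held 76 of the 125 regions (60.8%, 52.0% to 68.9%), a long non-coding RNA gene alone held 19 (15.2%), and 30 (24%) lay outside both. The share inside protein-coding genes was 48.3% of the 29 regions of at least 1500 bp and 40% of the 20 with a −log10 q of 2 or more. The corresponding shares were 57.0% (53.4% to 60.6%) inside protein-coding genes for the 719 and 67.3% (60.7% to 73.2%) for the 214 OTX015-only regions, and the interval of the 125 overlapped both. The host was also the gene with the nearest 5′ end for 50 of the 125. The distance to the nearest 5′ end ran from 2.675 to 364 kb with a median of 30.9 kb, close to the median of 30.3 kb in the 719. Within 10 kb of a 5′ end lay 14 of 125 (11.2%, 6.79% to 17.9%), against 21.8% (19.0% to 25%) of the 719 and 22.9% (17.8% to 29%) of the OTX015-only regions. The first interval lay below that of the 719 and met the edge of the last. Over 100 kb from every 5′ end lay 25 regions (20%).

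By chromosome, 24 of the regions were on chromosome 1, 15 on chromosome 17, 14 on chromosome 2 and 11 on chromosome 16. Chromosomes 3, 10 and 15 held 9 each, chromosome 12 held 8, chromosome 7 held 7 and chromosome 4 held 6. There were 3 each on chromosomes 9, 11 and 18, and 2 each on 14 and 22. Chromosome 21 held none of its 16 distal wide combination peaks (0% to 19.4%). The share of a chromosome's distal wide peaks was 25% (7 of 28, 12.7% to 43.4%) on chromosome 7 and 22.2% (24 of 108, 15.4% to 30.9%) on chromosome 1. It was 5.45% (3 of 55, 1.87% to 14.9%) on chromosome 11, and the intervals of chromosomes 1 and 11, picked from 16 for their high and low shares, did not overlap.

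Most regions had an OTX015 peak nearby. The nearest OTX015 peak lay within 1 kb of 45 of the 125 (36%, 28.1% to 44.7%), within 5 kb of 84 (67.2%) and within 12500 bp of 99 (79.2%). The median distance was 1.58 kb. Another combination peak lay within 12500 bp of 113. Beyond 50 kb from any OTX015 peak lay 8 regions (6.4%), the farthest in HDAC9 (284 kb), in EGF (282 kb) and 247 kb from SLC39A10 (189 kb), named after their distances were seen. The OTX015-only regions stood somewhat farther from combination peaks, with a median of 2.97 kb and 28 of 214 (13.1%, 9.21% to 18.3%) beyond 50 kb.

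Around the regions, peaks of the combination covered more ground than peaks of OTX015, with the region itself left out. Within 25 kb on either side, median cover was 2.36 kb in the combination list and 1.39 kb in the OTX015 list. The combination cover was the higher at 94 of 125 regions (75.2%, 67.0% to 81.9%), the OTX015 cover at 26, and 5 had none in either list. Within 10 kb the counts were 83 and 29, and within 50 kb 97 and 26. Summed over the 16 chromosomes the lists were alike, at 7350 kb of combination cover and 7349 kb of OTX015 cover. Over all chromosomes they were not, at 44356 kb and 26006 kb. An OTX015 peak reaching from a flank into a region would have removed that region, so the choice itself bears on this comparison. Around the 719 peaks the combination cover was the higher at 352 (49.0%, 45.3% to 52.6%) within 25 kb. Around the 214 OTX015-only regions the direction was turned, with the OTX015 cover higher at 147 (68.7%, 62.2% to 74.5%). Neighbouring peaks of a list share its depth and its local signal.

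**Figure D3:**
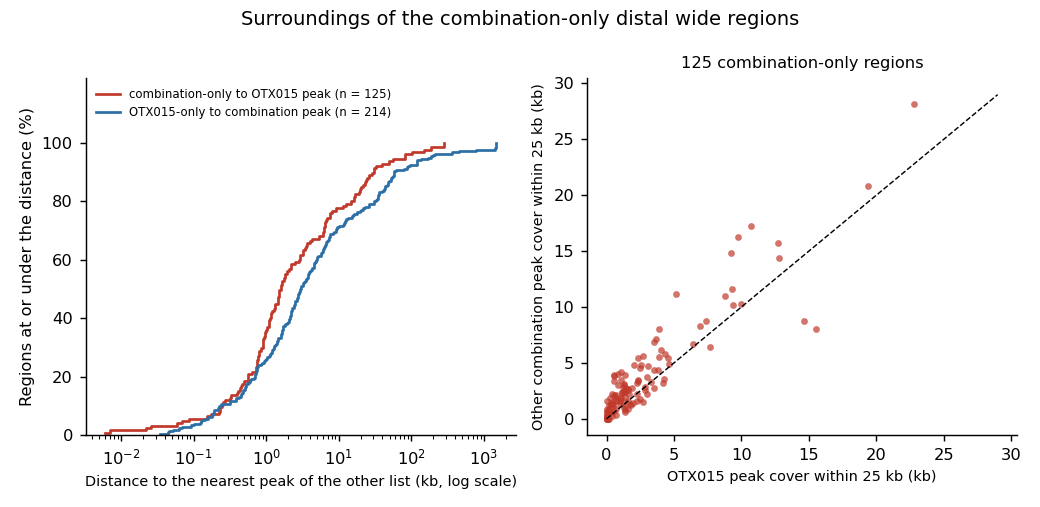
Left, the cumulative share (y axis, percent) of the 125 combination-only regions by distance to the nearest OTX015 peak (red) and of the 214 OTX015-only regions by distance to the nearest combination peak (blue), in kb on a log scale. Right, cover by OTX015 peaks (x axis, kb) against cover by other combination peaks (y axis, kb) within 25 kb of each combination-only region, where 94 of 125 points lie above the dashed line of equal cover.

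The widest regions lay at genes of very different roles. The widest, of 3036 bp (chr1:66393645-66396680), was 137 kb upstream of SGIP1, an endocytic adaptor, with a fold of 3.91 and the nearest OTX015 peak 20.2 kb away. SGIP1 had the nearest outer 5′ end, but a further RefSeq start, of PDE4B, lay 39110 bp away. The next, of 3012 bp (chr9:117723325-117726336, fold 3.77), covered the 3′ end of TLR4, the receptor for lipopolysaccharide, 18.9 kb from its start. Within the same gene, 3 OTX015 peaks lay closer to the start, the last ending 1.64 kb before the region. A region of 2532 bp in FAM117A (chr17:49737641-49740172, fold 3.97) had its nearest outer 5′ end at SLC35B1, a nucleotide transporter of the endoplasmic reticulum, 29.4 kb away. A further start of FAM117A lay 7056 bp from it. A region of 2008 bp (chr4:73731315-73733322, fold 3.86) lay 7.25 kb upstream of CXCL8, a chemokine that draws neutrophils, and the OTX015 list held 1 peak within 40 kb, 491 bp downstream of it.

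The rest of the 10 widest spanned 1863 to 2156 bp. They were nearest to SLC39A11, a zinc transporter, to PPFIBP1, MLDHR, TMEM87A and LOC107985876, and to ATP8B4, a subunit of a phospholipid flippase. Their folds ran from 3.28 at PPFIBP1 to 3.83 at LOC107985876. Width and fold were only partly shared, since 3 of the 10 widest (SGIP1, SLC35B1 and CXCL8) were also among the 10 of highest fold.

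The highest fold, 4.05, was at a region of 1225 bp inside FNDC3B (chr3:172075059-172076283), 35.5 kb into the gene, and a further region lay 57.3 kb upstream with a fold of 3.85. SSU72, a phosphatase of the RNA polymerase II tail, had a region 3.07 kb upstream with a fold of 3.99. ZNF710, a zinc finger gene, held a region with a fold of 3.99 and another with 3.54. EIF4G3, a translation initiation factor, held a region with a fold of 3.95. Folds of 3.89 and 3.87 were found 69.3 kb upstream of LYST, a regulator of lysosomal trafficking, and within INAVA, which takes part in innate receptor signalling. Even these 10 regions lay below the combination fold of 4.30 that matches the OTX015 level.

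PRKCB, which encodes protein kinase C beta, was the gene with most regions. Its 3 regions, of 1031, 1004 and 1522 bp, stood side by side within 4.54 kb (chr16:23855639-23860174), 19.7 to 22.7 kb into the gene, with folds of 3.70, 3.92 and 3.71. No OTX015 peak fell in the gaps between them. Over the gene with 50 kb on either side, and with the 3 regions left out, cover was 2.63 kb in the combination list and 0.519 kb in the OTX015 list. The other 135 of 136 linked genes (hosts, or genes with the nearest 5′ end) had 1 region (120 genes) or 2 (15 genes).

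**Figure D4:**
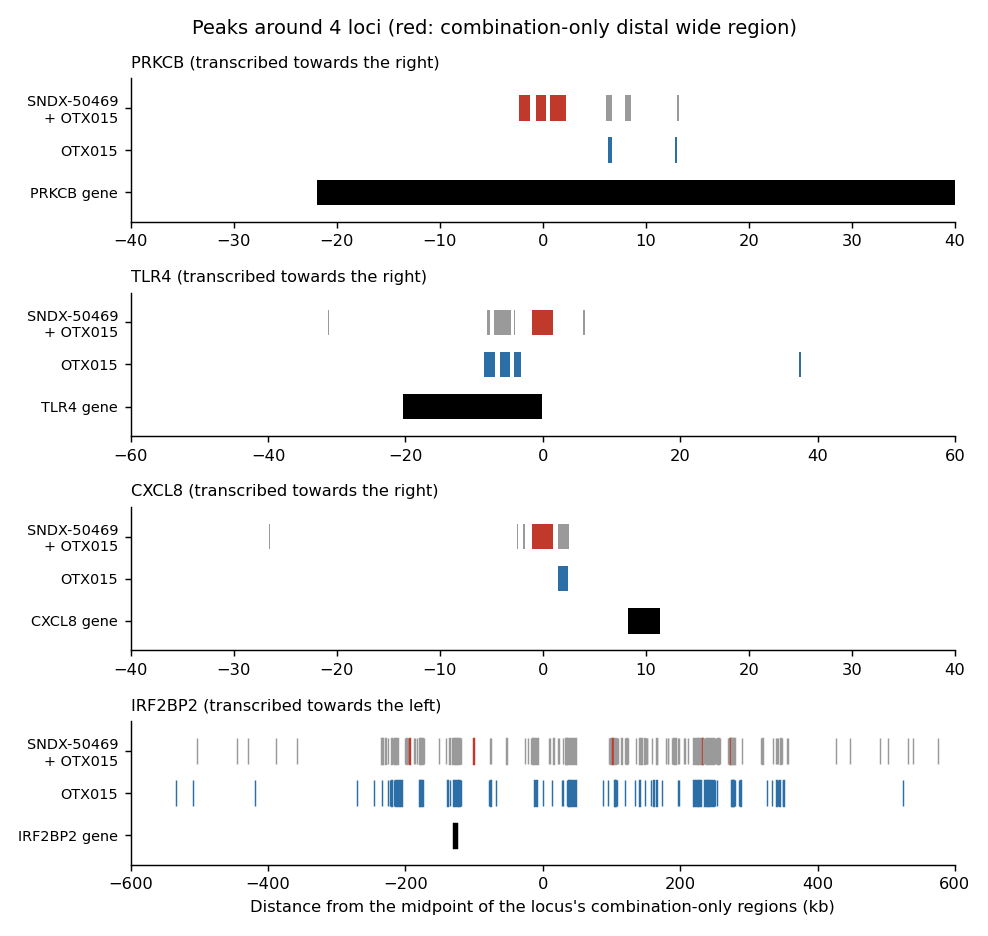
Peaks of both lists around PRKCB, TLR4, CXCL8 and IRF2BP2, drawn by distance in kb from the midpoint of the locus's combination-only regions (x axis), with combination-only regions in red, other combination peaks in grey, OTX015 peaks in blue and the gene body in black, where the PRKCB body runs past the right edge. PRKCB has 3 red regions beside 3 further combination peaks and 2 OTX015 peaks, CXCL8 has 1 red region and 1 OTX015 peak, and the IRF2BP2 panel holds 120 combination and 72 OTX015 peaks with 5 red regions.

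Few other regions stood in groups. Joining regions within 12500 bp of each other gave 121 clusters, of which 3 held more than 1 region, at PRKCB, in GNA12 and in SSH2. With a distance of 250 kb, 32 regions fell into 13 groups. The largest of these held 5 regions over 468 kb on chromosome 1 near TARBP1, IRF2BP2 and TOMM20. That stretch was acetylated in both lists, with 16 distal wide combination peaks and 11 distal wide OTX015 peaks, all 11 of which met a combination peak. With the 5 regions left out, combination peaks covered 85.4 kb of it and OTX015 peaks 61.6 kb. In contrast, a stretch of 156 kb on chromosome 10 between PRKCQ and SFMBT2 held 3 regions, no distal wide OTX015 peak, and, without the 3 regions, 3.33 kb of combination cover against 2.25 kb.

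Promoters of the nearest genes were acetylated more often than those of genes at large, and more often in the combination list alone. Of 111 nearest genes with a known strand, 15 (13.5%, 8.36% to 21.1%) showed a promoter peak, no farther than 1 kb from the start, in the combination list alone, against 3.62% of all 13939 protein-coding genes. A promoter peak in the OTX015 list alone was found for 11 (9.91%, 5.62% to 16.9%) against 5.76%, a share within that interval, in both lists for 15 (13.5%) against 6.2%, and in neither for 70 (63.1%) against 84.4%. The share with a peak in both lists was 22.5% (18.9% to 26.6%) for genes nearest to the 719 shared peaks. It was 16.2% for genes nearest to OTX015-only regions, and the shares in neither list were 58.7% and 70.1%. Promoter acetylation as such was thus no trait of the 111 genes alone. For genes nearest to the 719 shared peaks, the combination alone had 8.17% (5.98% to 11.1%). For genes nearest to OTX015-only regions it had 3.59% (1.66% to 7.62%). That last interval lay below the interval of the 111 genes, while the interval of the shared peaks overlapped that of the 111. Combination-only and OTX015-only regions were chosen in opposite directions, so the choice itself bears on this contrast. For host genes, the combination-alone share was 14.3% (10 of 70, 7.95% to 24.3%) beside 3.23% (4 of 124, 1.26% to 8.0%) for OTX015-only regions, and these intervals met. For hosts of the 719 shared peaks it was 6.83% (19 of 278, 4.42% to 10.4%), an interval that overlapped that of the 70 hosts. Genes near acetylated regions differ from genes at large in many ways, so the share over all genes is no matched control. Library depth and treatment cannot be told apart for these promoter peaks either.

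**Figure D5:**
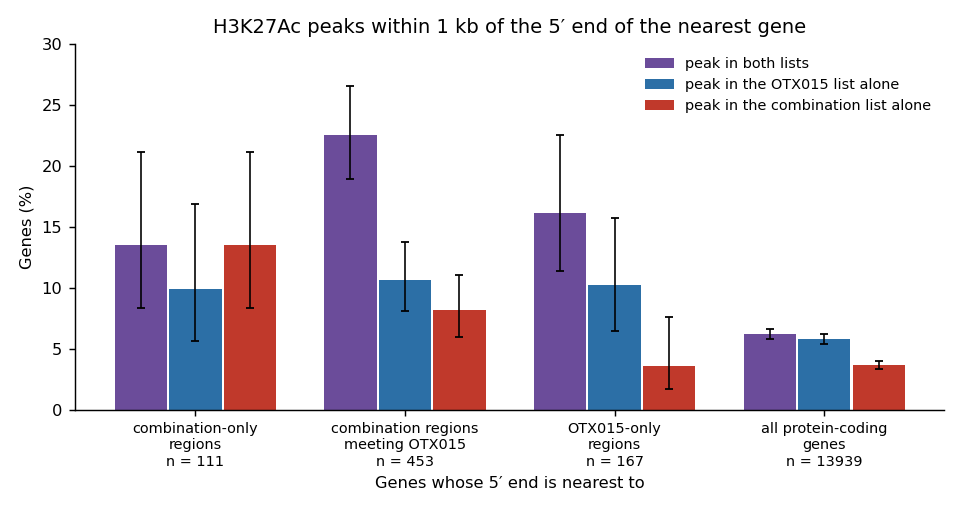
Share of genes (y axis, percent) whose start has an H3K27Ac peak at 1 kb or less in both lists (purple), in the OTX015 list alone (blue) or in the combination list alone (red), for the genes nearest to each kind of region and for all protein-coding genes of the 16 chromosomes, with Wilson 95% intervals. For combination-only regions the combination-alone share is 13.5%, and for OTX015-only regions 3.59%.

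The 15 genes with a promoter peak in the combination list alone included SRGN, which encodes the granule proteoglycan serglycin, ALAS1, the rate-limiting enzyme of haem synthesis, and FNDC3B and INAVA. ZC3H12A, a ribonuclease that degrades inflammatory mRNAs, HDAC9, a histone deacetylase, and SLC38A10 and SEL1L3 belonged to it as well. The 11 with a promoter peak in the OTX015 list alone included BCL2, the anti-apoptotic protein, SMAD7, an inhibitor of TGF-beta signalling, TXNIP, an inhibitor of thioredoxin, and IDH2, a mitochondrial isocitrate dehydrogenase. The region lay 177 kb from the start of BCL2, 100 kb from SMAD7, 42.1 kb from IDH2 and 12.1 kb from TXNIP. Those not on a gene list were named after their values were seen.

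The 19 gene lists took in leukaemia and myeloid biology, housekeeping genes and markers of other cell types. They held 246 genes on the 16 chromosomes, and 15 of these (6.10%) hosted or were nearest to a region. Over all 14132 protein-coding genes the share was 0.962%. The lists were chosen with earlier results of these data known, and genes linked to shared or OTX015-only regions were not set beside them. Linked genes were long, with a median record of 51.6 kb against 25.8 kb, and the part of length in these shares was not tested. Transcription factors of blood formation had 4 of 21 genes. ETV6, a repressor of the ETS family, held 2 regions of 1012 and 1298 bp (folds 3.41 and 3.70), in a locus (the gene with 50 kb on either side) with 69.0 kb of combination cover besides the regions and 58.7 kb of OTX015 cover. GFI1, a transcriptional repressor, had a region 22982 bp from its start (1270 bp, fold 3.56). MEF2D, a MADS box factor, had one 21.3 kb upstream (1147 bp, fold 3.62). IKZF1, which encodes Ikaros, had one 19.2 kb upstream (1390 bp, fold 3.33). At GFI1 and MEF2D both lists held promoter peaks, and locus cover without the region was 12.4 kb in the combination list and 13.5 kb in the OTX015 list for GFI1. For MEF2D it was 20.8 kb and 19.1 kb.

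Myeloid differentiation and effector genes had 3 of 27. Besides TLR4, these were TLR2, a receptor for bacterial lipoproteins, with a region 31.6 kb upstream (1296 bp, fold 3.79), and ANPEP, the surface aminopeptidase CD13, with one 23.4 kb upstream (1013 bp, fold 3.55) in the neighbouring gene AP3S2. Without the region, combination cover over the locus was 2.80 kb at TLR2 and 0.844 kb at ANPEP, against 1.58 kb and 0.351 kb of OTX015 cover. At TLR4 the order was the other way, at 3.35 kb of combination and 4.39 kb of OTX015 cover. TNF and NF-kB response genes had 2 of 27, CXCL8 and CCL4, a chemokine. The CCL4 region of 1123 bp lay 21.3 kb downstream of the gene's start (fold 3.57). Without this region and the region nearest to TBC1D3B, the locus had 16.7 kb of combination cover. Its OTX015 cover was 10.8 kb. Granule genes had 1 of 9, SRGN, with a region 34.6 kb upstream (1029 bp, fold 3.68).

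MLL fusion targets with a region were BCL2 and GFI1. Of 7 targets named by the study on these chromosomes, BCL2 had a region, 177 kb into its gene body (1254 bp, fold 3.26), near the lowest fold of the set. A further list of 20 such targets had 1, GFI1. Apoptosis genes had 2 of 16, BCL2 and CASP8. TGF-beta pathway genes had 2 of 19. These were SMAD7, with a region 100 kb upstream inside the gene DYM (1262 bp, fold 3.66), and ID2, an inhibitor of helix-loop-helix factors, with one 37.6 kb upstream (1107 bp, fold 3.26). Surface genes of leukaemia stem and progenitor cells had 1 of 11, IL1RAP, the co-receptor of interleukin 1, with a region 104 kb into the gene (1445 bp, fold 3.54), where the nearest OTX015 peak lay 31.0 kb away. At SMAD7 the OTX015 list had the larger cover over the locus, 4.84 kb against 3.56 kb, but the locus so measured did not reach the region.

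No region was linked to any of 24 interferon response genes, 16 cell cycle genes, 15 chromatin drug targets and co-dependencies, 4 markers of BET inhibition or 10 housekeeping genes. None was linked to the 9 myeloid, 4 B cell, 9 T and NK cell, 5 erythroid and megakaryocyte or 8 non-blood marker genes on these chromosomes. At a background of 0.962%, lists of this size would hold few linked genes in any case, so these zeros say little about the lists.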

How the data were processed

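Per the labels and the study's methods, MOLM13 chromatin was immunoprecipitated for H3K27Ac and tagmented with Tn5. Titles of the samples read H2K27Ac, in conflict with the antibody entry (H3K27Ac), which was used. Per the submitters' processing notes, bcl2fastq 2.17, Trimmomatic 0.33, Bowtie 1.1.2 and MACS2 2.1.0 were used on GRCh38. The authors deposited 1 broad peak list per library, whose columns give each peak a score, a fold enrichment (a ratio) and its p and q as −log10 values.

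Regions were filtered by width, distance and overlap (at least 1 bp), with RefSeq GRCh38.p14 gene records. Of 20037 protein-coding records, 15842 took their strand from the promoter table. GENCODE gave it for 3833, looked up first by Ensembl ID and then by symbol and chromosome. The other 362 counted both ends. Background was solved from the lowest peaks (14431 and 13553 peaks sharing 1 fold and 1 −log10 p) under a Poisson model with a pseudocount of 1, assuming a constant background. The regions and gene lists (354 of 355 symbols matched) were chosen with earlier results of these data known. Genes named are those at the 10 widest and 10 highest regions, those with 3 or more regions, list members, those at the thresholds and non-coding starts inside a region. The functions were tested on simulated peaks and were right in 50 of 50 runs. Computation ran in Python 3.11.15 with scipy 1.17.1, pandas 2.3.3, numpy 2.4.6 and matplotlib 3.10.9.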

Additional observations from a re-analysis of the deposited data

How the results depend on the processing

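The count of 125 regions, their 14.8% share and their median fold of 3.54 moved with width, spacing and peak strength. A width of 800 bp gave 274 regions (23.4%, fold 3.47) and 1500 bp gave 29 (6.13%, fold 3.63), of which 48.3% lay inside genes. Asking for no OTX015 peak within 1 kb left 80 (9.48%), and within 5 kb 41 (4.86%, fold 3.47). A −log10 q of 2 or more left 20 (4.71%, fold 3.85), with 40% inside genes. Merging combination peaks within 1 kb gave 362 (29.7%, fold 3.42). Keeping only combination peaks at or above the level of the lowest OTX015 peaks left 0 regions (0%), so no other value could be given there. These shifts follow from the construction of each alternative. The other distances from 5′ ends, both gene ends as 5′ ends, equal peak numbers and the further starts (115 regions, an alternative chosen after seeing the data) kept the count within 1.5 times. The share of regions reaching the level of the lowest OTX015 peaks stayed within 0% to 2.98% under all 11 alternatives that left regions. No paired analysis was possible because each treatment had 1 library and the result comes from no test.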
